A study of Mus musculus with 4 samples.

Results

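The genes described here are the replication-dependent histone cluster genes of the mouse, taken as every gene of the raw RNA table whose symbol starts with Hist1h, Hist2h, Hist3h or Hist4. The rule gave 67 genes out of 32285. It used symbols alone and no measured value. The cells were viable CD45+ leukocytes sorted from EO771 mammary tumors, a mouse breast carcinoma line, grown in the mammary gland of female mice. The mice were Csf1rfl/fl (2 tumors), which carry a floxed Csf1r gene and no Cre, or Lyve1CreCsf1rfl/fl (2 tumors), in which Cre under the Lyve1 promoter deletes Csf1r in cells that express, or once expressed, Lyve1. Both groups thus carry the floxed allele. Cells were captured in 2 runs of the Chromium platform, each of which pooled 1 tumor of each genotype told apart by a hashtag antibody, so that the run is shared by a pair of tumors and each genotype is seen once in each run.

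Core histones H2A, H2B, H3 and H4 form the spool around which DNA is wound, and the linker histone H1 sits where DNA enters and leaves it. A cell that copies its DNA must make a second set, and the cluster genes supply it: they are transcribed in S phase from gene clusters, mostly without introns, and most of their mRNAs end in a short hairpin, the stem-loop, that the protein Slbp binds, in place of a poly(A) tail. When DNA synthesis ends, these mRNAs are degraded. Some of the genes also make polyadenylated mRNAs, which are known from cells that have left the cycle. The libraries here were primed on poly(A), so the values are counts of captured molecules and not of all histone mRNA.

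In GENCODE vM21 (mm10) all 67 genes were found, 54 of them in the Hist1 cluster on chromosome 13 between bases 21715763 and 23934851, 10 in the Hist2 cluster on chromosome 3 between 96219865 and 96270132, 2 in the Hist3 cluster on chromosome 11 between 58948920 and 58956830, and Hist4h4 alone on chromosome 6. Of the 67, 62 have a single exon. A hairpin of 16 bases was searched on the transcript strand, with a stem of 6 pairs (G with T allowed) that opens with GG and closes with CC, a T as the last base of the first stem strand, and a loop of 4 bases, of which the first and the third are T. It was in some annotated transcript of 46 members and of 155 genes in all, 0.2801% of the 55341 in the annotation. In the longest coding transcript, which stands for each member from here on, it was in 45. The hairpins fell into few forms. The sequence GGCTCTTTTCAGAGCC stood in 25 members, from the H1, H2A, H2B and H3 families. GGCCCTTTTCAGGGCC stood in 7 members, all of them H4 genes, and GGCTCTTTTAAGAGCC in 6. The following are shown because they cover these forms and the genes that carried most of the signal. Capitals mark the stem-loop, lower case the flanking bases, and each lies in the exon of its gene.
Hist1h2ap: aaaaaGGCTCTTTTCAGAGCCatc
Hist1h2ae: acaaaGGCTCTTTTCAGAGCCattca
Hist1h1e: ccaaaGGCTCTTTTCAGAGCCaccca
Hist1h3c: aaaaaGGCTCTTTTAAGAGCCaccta
Hist1h4d: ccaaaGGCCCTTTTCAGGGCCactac
Hist1h4i: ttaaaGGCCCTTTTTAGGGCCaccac
Hist1h4j: ctaaaGGTCCTTTTCAGGACCaccac
Hist1h4a: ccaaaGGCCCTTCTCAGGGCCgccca
Hist3h2a: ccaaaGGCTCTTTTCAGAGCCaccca
The annotated transcript of Hist1h2ap stops 3 bases after its hairpin, while that of Hist1h2ae runs on for 151 bases and holds the poly(A) signal AATAAA among its last 50 bases. Such a longer form was common: the transcript ran at least 100 bases past the hairpin in 23 members, ended within 100 bases of it in 22, and held no hairpin of this form in 22. The first class took 47.2% of all histone UMIs (unique molecular identifiers, the unit of the counts), the second 35.6% and the third 17.2%.

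Promoters of 62 members were matched in RefSeq (GRCm38.p6), each from 250 bases before to 50 after the start, and 4 short motifs were searched on both strands. The octamer ATTTGCAT, bound by Oct factors, was in 7 of 18 H2A and 6 of 16 H2B promoters and in none of the H1, H3 or H4 promoters, against 1.75% of all 27025 promoters. CCAAT was in every H1, H2A, H2B and H3 promoter matched but in only 3 of 12 H4 promoters, against 37.9% of all promoters. AAACACA, known as the H1 box, was in 5 of 6 H1 promoters, in 2 of 18 H2A and 2 of 16 H2B promoters, and in none of the H3 and H4 promoters, against 7.14% of all. TATAAA was in 35 of the 62 promoters, against 14.2% of all. One site of each kind is shown, with the motif in capitals and each read on the strand of its gene.
Hist1h1b, H1 box 117 bases before the start: ggactaacAAACACAatttggga
Hist1h2ab, octamer 129 bases before the start in reverse orientation: aggcctttATGCAAATgaggagct
Hist1h2ap, CCAAT 158 bases before the start: agtcttgtCCAATtgacgtgc
Hist1h4d, TATAAA 32 bases before the start: attggtatTATAAAagccagga

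The authors kept 28429 cells, 53.3% of the barcodes, and 28418 of these could be given to a tumor by the higher hashtag count. The tumors held between 4771 and 8624 cells with a median of 3718 to 4664.5 UMIs per cell, and 60 barcodes occurred in both runs. The largest, the Csf1rfl/fl tumor of run 1, is counted here with 11 cells of equal hashtag counts, which were given to no tumor. In the Csf1rfl/fl tumor of run 1, 6.01% of cells had a hashtag under 3 times the other, against 0.218% to 2.43% in the others. Cells were put into types by panels of lineage markers. As the gate sets it, the median of each panel was highest in its own type. Of the cells, 15.8% passed several panels and 8.70% passed none, and both were left out of the types. They held 57166 and 11079 of the 271951 histone UMIs, in that order. Another 2246 cells (7.90%) were T cells outside the CD8, regulatory and Foxp3-negative CD4 types, and are called other T cells. No level is given for them alone. They are part of the 6689 T cells used where T cells are compared as 1 set. Csf1r, the targeted gene, was at 2.16 and 2.42 UMIs per 10000 in monocytes and macrophages of the Csf1rfl/fl tumors of runs 1 and 2, and at 1.58 and 1.57 in those of the Lyve1CreCsf1rfl/fl tumors. Lyve1 itself had 4 UMIs in all in these cells. The sources used here do not say whether the counted reads fall in the floxed exon, so that the Csf1r counts are no check of the deletion.

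Histone cluster RNA made up 0.169% of all UMIs, 271951 in number. Of the 67 genes, 66 had at least 1 UMI and 62 had at least 50; the remaining 5, Hist2h2aa2, Hist1h1t, Hist1h2bq, Hist1h2aa and Hist1h2ba, had between 0 and 5. A few genes held most of the signal. Hist1h2ap (chromosome 13, 21833026 to 21833507, minus strand), an H2A gene, had 50199 UMIs. Hist1h2ae (23570517 to 23571220, minus), the next and also an H2A gene, had 43352, and together these 2 took 34.4% of the histone UMIs. They were followed by the linker histone genes Hist1h1e (23620629 to 23622558, minus) with 19459 and Hist1h1b (21779883 to 21780625, minus) with 17379, and by Hist1h4d, an H4 gene (23581598 to 23582735, plus), with 11935. The linker gene Hist1h1c (23738808 to 23740367, plus) had 8126. The H3 genes Hist1h3e (23561534 to 23562369, minus) and Hist1h3c (23744973 to 23745602, minus) had 7578 and 7563. The last 4 of the 12 with the most UMIs were the linker gene Hist1h1d (23553262 to 23560686, plus) with 7298, the H2B gene Hist1h2bc (23684199 to 23692908, plus, 2 exons) with 7098, the H2A gene Hist2h2aa1 (chromosome 3, 96245497 to 96246082, plus) with 6882, and the H4 gene Hist1h4i (chromosome 13, 22040636 to 22041362, minus) with 5749. These 12 held 70.8% of the UMIs. By family, the 18 H2A genes held 43.2%, the 6 H1 genes 19.998%, the 18 H2B genes 13.3%, the 13 H4 genes 12.5% and the 12 H3 genes 11.0%. Copies limit the reading of single genes. In 9 members, Hist1h2ap among them, over 90% of the 50-base windows of the transcript recur in another gene, and 7 share exon sequence with an overlapping gene on the same strand, among them Hist1h1e with Hist1h2be, and Hist3h2a with Trim17. How the authors' counting split such reads is not given in the sources used here, so single values for these genes are uncertain.

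Where in the tumor leukocytes the histone RNA lay was asked first. Cells were divided by 88 genes of S and G2M phase, none of them a histone gene, into cycling cells (at least 80 UMIs of these genes per 10000) and cells outside the cycle (under 40), and cells in between were left out of both. In CD8 T cells the summed histone level of the cycling cells was 86.9 UMIs per 10000 in the Csf1rfl/fl tumor of run 1, 57.3 in that of run 2, 84.9 in the Lyve1CreCsf1rfl/fl tumor of run 1 and 57.5 in that of run 2. The 4 tumors are given in this order from here on. Outside the cycle the level was 4.07, 4.83, 4.997 and 4.31, so that every tumor's cycling cells lay far above its other cells. Cycling CD8 T cells were 2.68% of the kept cells and held 18.5% of the histone UMIs. Their median cell had 57 histone UMIs, against 1 in CD8 T cells outside the cycle, at median depths of 7960 and 3811 UMIs.

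The other lymphocytes had the same division. Cycling regulatory T cells were at 78.1, 54.0, 72.2 and 57.4, against a mean of 5.28 ± 0.82 (SD, n = 4 tumors) outside the cycle. In CD4 T cells without Foxp3 the levels were 80.1, 62.0, 70.1 and 45.2 in cycling cells and 4.67 ± 0.54 outside. Cycling NK cells had the highest summed levels of the types compared (B cells had 4 cycling cells, all in 1 tumor, and were left out), at 118, 76.9, 112 and 86.5, with 5.31, 5.50, 5.62 and 5.47 outside the cycle. In each tumor the NK cells stood above the CD8 T cells, but the ranges over tumors overlapped. Only 205 NK cells were cycling.

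Few myeloid cells were cycling, and those that were had histone levels of the same order as T cells. In monocytes and macrophages 107 of 6085 cells were cycling, at 72.1, 41.8, 32.5 and 40.6, against 4.29, 4.35, 4.86 and 4.47 in the 5844 outside the cycle. Dendritic cells had 79 cycling cells at 97.6, 48.0, 58.7 and 58.2, with a mean of 3.67 ± 0.18 outside. Among 4494 neutrophils, which are terminally differentiated, 14 passed as cycling, too few for a comparison, and the level outside the cycle was 4.65, 3.50, 4.53 and 4.38. Outside the cycle the types thus lay close together, with means from 3.67 in dendritic cells to 5.48 in NK cells. Levels over all cells of a type were further apart. The share of cycling cells was 27.4%, 37.0%, 28.1% and 35.0% in CD8 T cells and 2.15%, 1.64%, 1.05% and 1.98% in monocytes and macrophages, and the summed level over all cells was 35.7 ± 3.28 in the former and 6.24 ± 0.71 in the latter (n = 4). The level did not go with that share throughout. NK cells, with 19.8%, 11.0%, 14.5% and 19.2% of cells cycling, were at 34.6 ± 9.73, and among the CD8 T cells the tumors of run 2 had the larger shares and the lower levels (38.6, 34.3, 38.2 and 31.7). Cells were also thinned to 1500 UMIs, which gave each cell the same depth and the same weight in the summed level. Of all kept cells, 2633 were left out of this. Thinning left the cycling levels at 74.6 in CD8 T cells (71.6 unthinned), 97.5 in NK cells (98.4), 45.9 in monocytes and macrophages (46.8) and 62.2 in dendritic cells (65.6). Over all cells it moved the level to 27.3 in CD8 T cells, 21.9 in NK cells, 17.6 in CD4 T cells without Foxp3, 27.9 in regulatory T cells and 5.68 in dendritic cells, so NK cells, at nearly the level of CD8 T cells unthinned, lay below them. A doublet caller, Scrublet, marked 39.3% of the cycling monocytes and macrophages, 25.3% of the cycling dendritic cells and 11.7% of the cycling CD8 T cells, against 10.4% of the monocytes and macrophages outside the cycle. Without the marked cells, cycling monocytes and macrophages were at 35.4. T cell markers summed to 0.19 to 0.49 UMIs per 10000 in cycling and to 0.24 to 0.50 in other monocytes and macrophages, with none of the 5 markers at 0. NK markers summed to 0.18 to 2.94 in the former and to 1.16 to 1.25 in the latter, and neutrophil markers to 3.02 to 31.3 and 8.83 to 18.5, with none of either list at 0. Cells that also passed the T or NK cell panel had been left out. The T and NK marker sums were thus held low by the gate and cannot show whether doublets remain. The part of these in the cycling levels was not tested. Dendritic cell markers were lower in cycling dendritic cells, 7.76 to 11.0, than in the others, 26.4 to 35.6. A small population sorted with the leukocytes, 226 cells with markers of tumor or stromal cells, held 8.995% of all histone UMIs in 0.795% of the cells, at a median of 48077.5 UMIs per cell, and Ptprc, the gene of CD45, was at 0.12 to 0.26 per 10000 in them, against 6.71 to 10.9 in monocytes and macrophages. Thinned to 1500 UMIs, these 226 cells were at 23.6, 9.06, 22.4 and 15.4, against 13.5, 9.52, 12.1 and 11.8 over all kept cells.

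**Figure D1:**
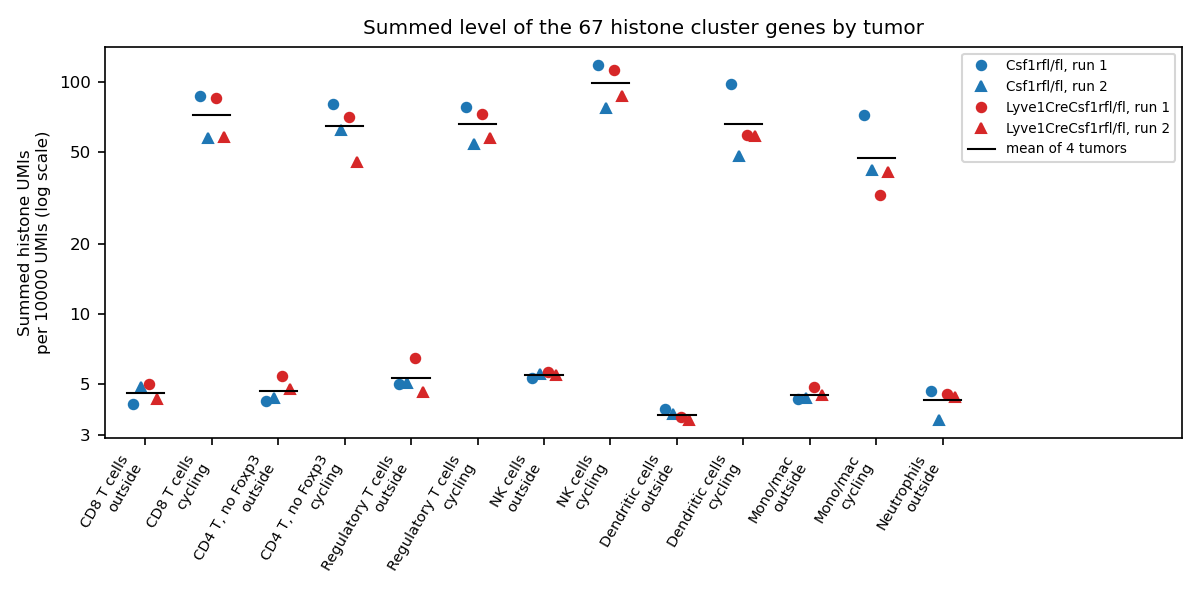
Summed level of the 67 histone cluster genes in UMIs per 10000 (log scale) for each gated cell type, in cycling cells and in cells outside the cycle. Each point is 1 tumor, with genotype by color and run by shape, and lines mark the mean of 4 tumors. Cycling neutrophils are left out. Cycling CD8 T cells lie between 57.3 and 86.9, and the same cells outside the cycle between 4.07 and 4.997.

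The step was abrupt along the cycle score. CD8 T cells with a score under 10 were at 4.91 histone UMIs per 10000 (mean of 4 tumors), those from 20 to 40 at 4.82, those from 40 to 80 at 8.42, those from 80 to 160 at 52.8 and those from 160 to 320 at 95.1. Below a score of 40 the level was thus flat. In NK cells the corresponding values were 63.9 from 80 to 160 and 145 from 160 to 320.

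Cycling cells were then compared with cells of the same type outside the cycle, gene by gene, with UMIs summed per tumor and the tumor as a block. The quasi-likelihood test of edgeR was used, with p adjusted over every gene tested by the Benjamini-Hochberg method. A gene is called below when its adjusted p was under 0.05, and differences are on the log2 scale of the fit. In CD8 T cells 57 members passed the filter on low counts and 55 were called, all higher, with a median difference of 3.64. Of all 9294 genes tested in this comparison 20.1% were called higher and 17.4% lower, and their median difference was -0.04. A gene can pass the filter through its cycling cells alone and then had to differ. Of the 40 members with at least 10 UMIs on both sides 38 were called higher, with a median of 3.14.

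Linker histones, which compact the fiber, were called higher in CD8 T cells in 5 of 5 tested. Hist1h1b was at 5.73, 3.94, 4.58 and 4.67 UMIs per 10000 in cycling cells and at 0.0681, 0.0656, 0.0590 and 0.0971 outside, a difference of 6.08 ± 0.14 (SE, adjusted p = 7.48e-19, edgeR). It was near absent outside the cycle. Hist1h1e was at 4.72, 3.23, 4.31 and 3.01 against 0.606, 0.684, 0.649 and 0.437, a difference of 2.71 ± 0.11. Hist1h1e therefore kept a level outside the cycle that was larger than that of any other of the 12 leading members in these cells. Hist1h1c was at 1.29, 0.963, 1.07 and 0.948 against 0.235, 0.394, 0.362 and 0.372, the smallest difference of the linker genes at 1.74 ± 0.16. Hist1h1d was at 1.77, 1.86, 1.997 and 1.84 against 0.114, 0.178, 0.177 and 0.283. Hist1h1a had a mean of 0.490 in cycling cells and 7 UMIs in all outside, and Hist1h1t, the testis form, was among the members with 5 UMIs or fewer.

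Among H2A genes 12 of 14 tested were called higher. Hist1h2ap was at 22.6, 7.62, 20.4 and 8.06 in cycling CD8 T cells and at 0.2801, 0.0656, 0.160 and 0.162 outside, a difference of 6.40 ± 0.12 (adjusted p = 5.62e-20, edgeR), or 84.6-fold. Hist1h2ae was at 16.4, 9.14, 17.4 and 9.33 against 0.216, 0.169, 0.211 and 0.105, a difference of 6.22 ± 0.10. For both, the tumors of run 1 lay well above those of run 2 in the cycling cells whatever the genotype. Hist2h2aa1 did not have that order, with 1.25, 1.47, 0.981 and 1.51 against 0.129, 0.272, 0.253 and 0.202 and a difference of 2.70 ± 0.16. Hist1h2an (4.63), Hist2h2ac (3.82) and Hist1h2ac (2.33) were called as well. Another 6 had 1 to 6 UMIs in all outside the cycle, so the size of their difference rests on almost no counts and is not given. Their mean levels in cycling cells were 0.808 for Hist1h2ab, 0.696 for Hist1h2af, 0.378 for Hist1h2ak, 0.162 for Hist1h2ai, 0.1496 for Hist1h2ad and 0.140 for Hist1h2ag. The 2 that were not called were Hist2h2ab, with a difference of 0.81 ± 0.44, and Hist3h2a, with 0.52 ± 0.43 (adjusted p = 0.161 and 0.360, edgeR).

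All 16 H2B genes tested were called higher, 10 of them with at least 10 UMIs on both sides and differences from 1.25 to 5.44. Hist1h2bc was at 0.474, 0.660, 0.709 and 0.846 in cycling cells and at 0.155, 0.0562, 0.135 and 0.154 outside, a difference of 2.27 ± 0.19. Among the 10 with at least 10 UMIs on both sides, Hist1h2bb (5.44) and Hist1h2bm (5.35) had the larger differences. In a middle range lay Hist1h2bj (4.16), Hist2h2bb (3.48), Hist1h2br (3.45), Hist1h2bg (3.19) and Hist1h2be (3.15), and those of Hist2h2be (2.0001) and Hist3h2ba (1.25) were the smallest. The remaining 6 had 1 to 8 UMIs outside the cycle, so their differences are not given, and their mean levels in cycling cells were 0.566 for Hist1h2bn, 0.454 for Hist1h2bh, 0.281 for Hist1h2bp, 0.130 for Hist1h2bk, 0.118 for Hist1h2bf and 0.0796 for Hist1h2bl.

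H3 and H4 form the tetramer at the core of the spool. All 9 H3 genes tested were called higher. Hist1h3c was at 3.02, 2.47, 2.89 and 2.46 in cycling cells against 0.0265, 0.0187, 0.0169 and 0.0243 outside, a difference of 6.88 ± 0.17, and Hist1h3e at 2.68, 1.97, 2.69 and 1.87 against 0.144, 0.131, 0.202 and 0.146, a difference of 3.93 ± 0.13. Differences were 4.78 for Hist1h3i, 3.94 for Hist1h3f and 3.64 for Hist1h3d, and Hist2h3b (2.89) and Hist1h3a (2.70) were lowest. Hist1h3b and Hist1h3g, with 3 and 2 UMIs outside, had mean levels of 0.594 and 0.241 in cycling cells. All 13 H4 genes tested were called higher too. Over the members with at least 10 UMIs on both sides, the median difference was 2.32 in 11 H4 genes, 3.93 in 7 H3, 3.32 in 10 H2B, 3.26 in 8 H2A and 3.05 in 4 H1 genes, with ranges that overlapped, and the families were not tested against each other. Hist1h4d was at 3.10, 2.76, 3.07 and 2.75 against 0.310, 0.328, 0.379 and 0.332, a difference of 3.14 ± 0.11. Hist1h4i was at 0.969, 1.12, 1.53 and 1.11 against 0.201, 0.2999, 0.354 and 0.396, a difference of 1.95 ± 0.13. Differences among the other H4 genes went from 3.24 in Hist1h4j through 3.22 in Hist1h4k, 3.06 in Hist1h4h, 2.92 in Hist1h4a, 2.32 in Hist1h4m, 2.23 in Hist1h4n, 2.06 in Hist1h4c and 1.54 in Hist2h4 to 0.99 in Hist4h4. Hist1h4f and Hist1h4b, with 5 and 4 UMIs outside, had mean levels of 0.187 and 0.0759 in cycling cells. H4 genes took 30.1 ± 3.42% of the histone UMIs of CD8 T cells outside the cycle (SD, n = 4), against 11.6% in cycling cells, and the share of H2A went the other way, from 17.2% outside to 44.8%. Not tested here, for low counts, were Hist1h3h with 137 UMIs over all cells, Hist2h3c1 with 79, Hist2h3c2 with 71, Hist1h2ao with 61 and Hist1h2ah with 56. Grouped by the annotated transcript and again with at least 10 UMIs on both sides, the median difference was 3.82 for 11 members that end within 100 bases of the stem-loop, 3.33 for 10 without one and 2.92 for 19 that run at least 100 bases past it. The ranges overlapped here too, and the classes were not tested against each other.

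**Figure D2:**
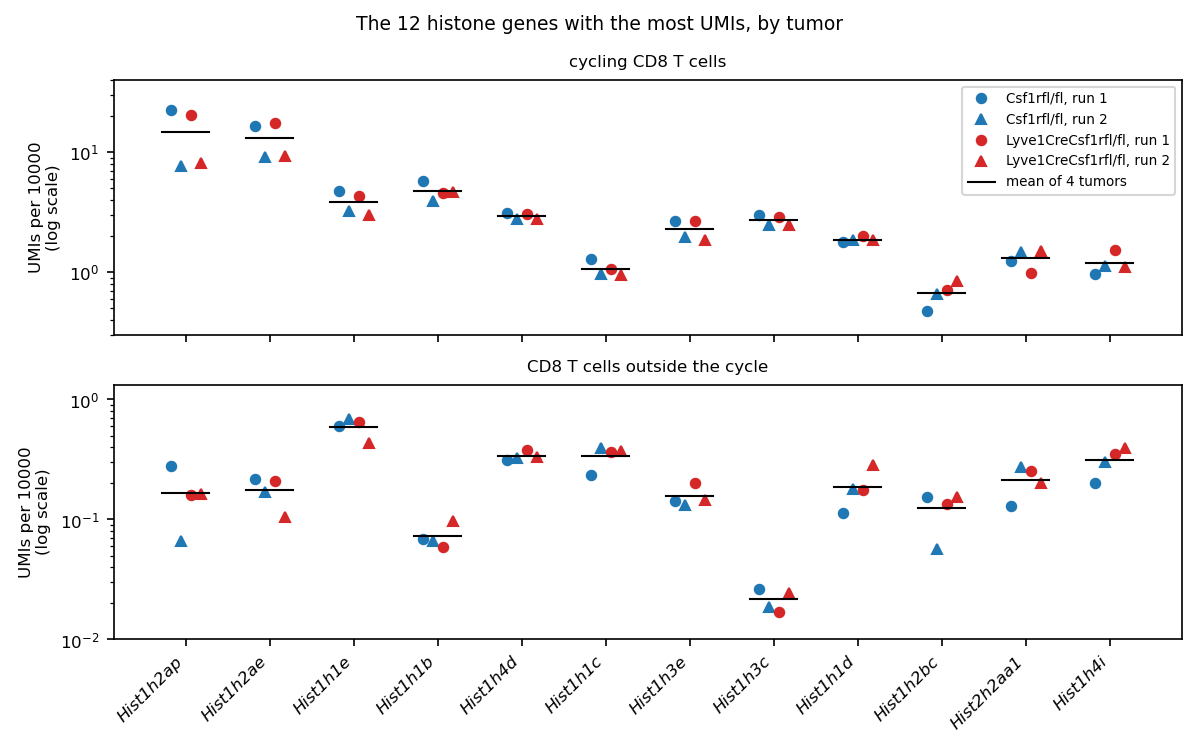
Level in UMIs per 10000 (log scale) of the 12 histone cluster genes with the most UMIs in cycling CD8 T cells and in CD8 T cells outside the cycle, 1 point per tumor, with the mean of 4 tumors as a line. The y ranges of the 2 panels differ. Hist1h2ap and Hist1h2ae are highest in cycling cells, at 7.62 to 22.6, and Hist1h1e is highest outside the cycle, at 0.437 to 0.684.

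The other types gave the same direction for nearly every member tested. In regulatory T cells 49 of 51 were called higher, where 26.4% of all genes were, with Hist1h2ap at a difference of 6.09. Hist1h3c had a mean of 2.35 in cycling regulatory T cells and 6 UMIs in all outside. In monocytes and macrophages 49 of 54 were called higher and 1 lower, against 9.14% and 9.91% of all genes, and in dendritic cells 43 of 48 higher and 1 lower, against 16.6% and 19.2%. With at least 10 UMIs on both sides these were 25 of 27, 41 of 44 and 36 of 38 called higher. Hist1h2ap had differences of 5.16 ± 0.21 in monocytes and macrophages, where its levels were 17.5, 5.36, 5.97 and 4.60 in cycling and 0.309, 0.127, 0.219 and 0.106 in other cells, and 6.31 in dendritic cells. The Csf1rfl/fl tumor of run 1 stood above the other 3 in both. Hist1h1b was at 10.9, 7.57, 5.52 and 8.53 in cycling dendritic cells and at 10.9, 8.18, 9.63 and 9.37 in cycling NK cells. The NK values lay above its 3.94 to 5.73 in cycling CD8 T cells, and those of dendritic cells overlapped them. Hist1h2bc, called higher in cycling CD8 T cells, had a difference of 0.14 ± 0.27 in dendritic cells and was not called there.

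Hist3h2a, an H2A gene of the small cluster on chromosome 11, was the single member called lower, in monocytes and macrophages and in dendritic cells. It was at 0.0847, 0.0730, 0.0948 and 0.0886 UMIs per 10000 in cycling monocytes and macrophages against 0.289, 0.350, 0.359 and 0.346 outside the cycle, a difference of -2.18 ± 0.40 (adjusted p = 0.000314, edgeR). In dendritic cells it was at 0.0392, 0.105, 0.0421 and 0 against 0.427, 0.350, 0.294 and 0.314, a difference of -2.50 ± 0.43. Neither range overlapped. The gene had 9 UMIs in all in the cycling monocytes and macrophages and 8 in the cycling dendritic cells, so the sizes rest on few counts. It passed the filter through the cells outside the cycle. With at least 10 UMIs required on both sides, 0 members were called lower in either type. In CD8 T cells the gene was low on both sides, at 0.0789, 0.0426, 0.0701 and 0.0454 against 0.0265, 0.0562, 0.0590 and 0.0405. Under an interaction term, the difference between cycling and other cells itself differed between CD8 T cells and monocytes and macrophages by 2.67 ± 0.55 (adjusted p = 0.00839, edgeR), and for Hist1h2ap by 1.17 ± 0.27 (adjusted p = 0.0185), and for no other of the 57 members tested. Over all genes, 3.62% were called in that test. Leaving out the Csf1rfl/fl tumor of run 1 gave 2.30 for Hist3h2a, which was then not called (adjusted p = 0.111 in edgeR's fit across all genes). Leaving out doublets gave 16 members called, and more of all genes were called as well, so this count alone says nothing about the members. Since the Hist3h2a transcript overlaps Trim17 on the same strand, these counts may hold reads of Trim17, which was not tested.

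**Figure D3:**
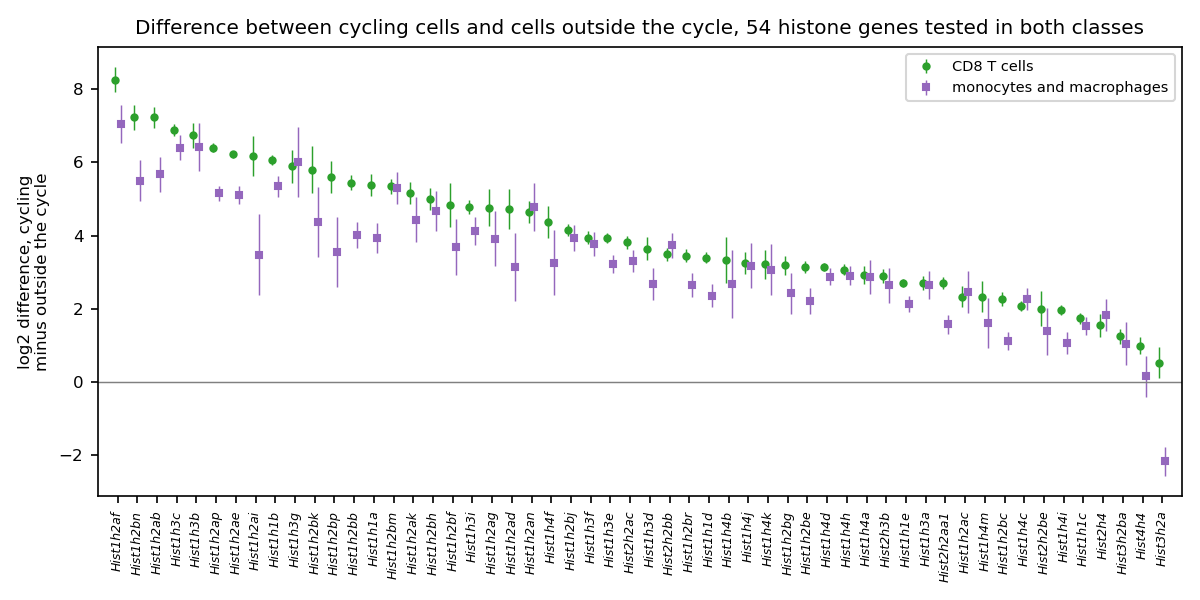
Log2 difference (y axis) between cycling cells and cells outside the cycle for the 54 histone cluster genes tested both in CD8 T cells (circles) and in monocytes and macrophages (squares), ordered by the value in CD8 T cells, with SE as error bars. All values but that of Hist3h2a in monocytes and macrophages, at -2.18, lie above 0. At least 10 UMIs on both sides were present in 40 of 57 members tested in CD8 T cells and 44 of 54 in monocytes and macrophages. The other sizes rest on few counts.

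The cell cycle split also asked where in the cycle the RNA was highest. Cycling T cells of all classes were ordered by the share of S genes among the UMIs of the 37 S and 51 G2M genes. The summed histone level was 60.6 ± 10.4 where S genes made up under 10%, 81.5 ± 12.6 from 10 to 20%, 83.8 ± 26.4 from 20 to 30%, 77.1 ± 16.6 from 30 to 40%, 53.1 ± 14.6 from 40 to 50% and 18.4 ± 4.69 at 50% and over (n = 4 tumors each). The level was thus highest in the middle of the order, and the bins from 10 to 40% differed by less than their spread over tumors. Hist1h2ap had the same shape, from 10.6 through 17.6 to 2.06. Along the same order Pcna, a replication gene that is part of the split, was at 0.930, 2.44, 5.09, 6.38, 6.88 and 6.90 and Ube2c, a G2M gene of the split, at 11.2, 6.13, 2.49, 0.925, 0.302 and 0.0681. Slbp, which was kept out of the split, was at 0.641, 1.32, 1.99, 2.35, 2.43 and 2.50.

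Cells with an S share of at least 50% (172 cells, called S-leaning) were tested against the other 1469 cycling T cells. The latter are not all G2M cells, since 258 of them had an S share from 30 to 40% and 187 one from 40 to 50%, with Pcna near its level in S-leaning cells and little Ube2c. The summed level was 24.2, 20.1, 15.3 and 13.9 in the former and 90.4, 60.7, 81.9 and 61.1 in the latter. Of 58 members tested 43 were called higher in the other cells and 0 lower, with a median difference of 1.71, where 3.70% of all genes were called higher and 1.77% lower. Of the 40 members with at least 10 UMIs on both sides 35 were called. Hist1h2ap rose from 3.39, 1.65, 2.01 and 1.19 in S-leaning to 22.8, 8.23, 19.1 and 8.62 in the other cells, a difference of 2.87 ± 0.10, and Hist1h2ae by 2.96 ± 0.10. Hist1h1b was at 2.67, 1.58, 0.819 and 1.08 in S-leaning and at 6.22, 4.76, 4.95 and 5.53 in the other cells, a difference of 1.91 ± 0.12. No tumor's S-leaning cells reached the level in the other cells of any tumor in these genes. Of the H4 genes 5 of 13 were called, with a median of 0.97, and Hist1h4d was at 1.40, 1.07, 1.15 and 1.05 against 3.18, 2.90, 3.14 and 2.96. Hist1h3a, an H3 gene, had a difference of -0.11 ± 0.18. With a stricter threshold of 120 for cycling cells, 20 members were called, a count that has no share of all genes to set it against.

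**Figure D4:**
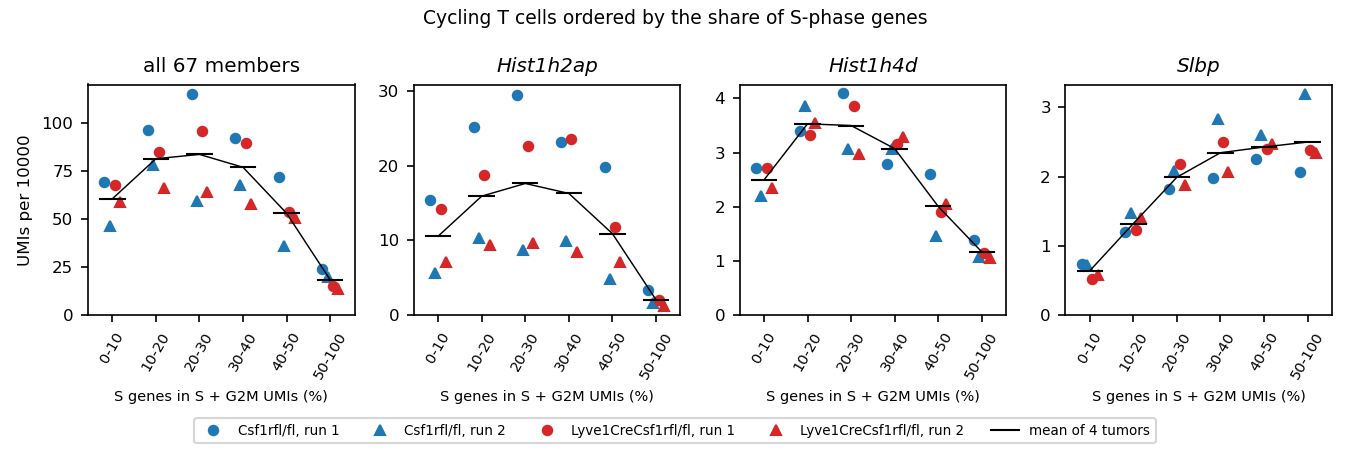
Level in UMIs per 10000 of cycling T cells, in 6 bins of the share of S genes among the cycle genes (percent), for all 67 histone cluster genes summed and for Hist1h2ap, Hist1h4d and Slbp. Points are tumors and lines join the means of the 4 tumors. The summed level is highest, at 83.8, from 20 to 30% and lowest, at 18.4, at 50% and over.

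The proteins that serve these genes were followed as a list of 24, with 23 tested in CD8 T cells. Of these 18 were called higher in cycling cells, with a median difference of 1.14, where 20.1% of all genes were called higher. Asf1b, a chaperone of H3 and H4, rose by 4.74, Ccne2, a cyclin of the step into S phase, by 3.26, and Chaf1a, the large subunit of the assembly factor CAF-1, by 2.65. Slbp, which binds the stem-loop, rose by 1.29 and Npat, the coactivator of the clusters, by 0.78. In monocytes and macrophages 13 of 23 and in dendritic cells 14 of 23 were called higher, against 9.14% and 16.6% of all genes. Against S-leaning T cells, the other cycling T cells had none of the 23 higher and 5 lower, among them Chaf1b (-1.46), Ccne2 (-0.82) and Slbp (-0.55), and 18 were not called. Of all 9652 genes tested there, 357 were called higher and 171 lower. The replication-independent histones, variants that can take the place of the cluster histones in chromatin, formed a list of 11. In CD8 T cells 7 of 10 tested were called higher in cycling cells, H2afx by 3.50, Cenpa, the H3 of centromeres, by 2.21, H2afz by 1.87 and H2afv by 1.72, while H3f3a and H3f3b, which encode the variant H3.3, differed by 0.27 and 0.14. H1fx was among the 7 but had 7 UMIs in all outside the cycle, so its size is not given. In monocytes and macrophages H3f3b was the 1 member of the list called lower, at -0.60.

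Outside the cycle the types were compared with each other, again within tumors, to see which members were counted in cells low in the cycle genes. Whether these cells still divide, and whether all of the counted RNA was made in them, was not tested. In neutrophils the H2B genes took 38.1 ± 2.89% of the histone UMIs, against 16.5 ± 0.95% in monocytes and macrophages and 15.04 ± 1.92% in CD8 T cells, and a single gene, Hist1h2bc, took 26.2%. Hist1h2bc was at 1.32, 0.855, 1.35 and 0.961 UMIs per 10000 in neutrophils and at 0.355, 0.270, 0.305 and 0.324 in monocytes and macrophages, a fitted difference of 2.93 ± 0.13 with TMM factors (adjusted p = 5.34e-22, edgeR) and of 1.83 with total UMIs as the scale, which is the scale of the levels printed here. Its family member Hist1h2be was at 0.298, 0.241, 0.357 and 0.329 against 0.0699, 0.0738, 0.0826 and 0.0866. The ranges of both genes lay apart. Hist1h1c was at 0.645, 0.367, 0.585 and 0.741 against 0.319, 0.310, 0.329 and 0.309, and Hist2h2aa1 at 0.509, 0.457, 0.535 and 0.457 against 0.254, 0.269, 0.279 and 0.312. These 4 members were higher in neutrophils under every scaling tried, the other 3 by 1.96 (Hist1h2be), 0.82 (Hist1h1c) and 0.84 (Hist2h2aa1) with total UMIs as the scale.

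In all, 8 of 33 members tested were called higher in neutrophils and 6 lower, where 33.9% and 38.8% of all genes were, 72.7% in either direction. With at least 10 UMIs on both sides these were 8 and 5 of 30. Lower were Hist1h4d, at 0.0318, 0.0838, 0.0326 and 0.0274 against 0.215, 0.251, 0.246 and 0.270, Hist1h1d, Hist2h2ac, Hist3h2a, Hist3h2ba and Hist1h3d, the last with 7 UMIs in all in neutrophils. The count rests on the scale. The fit uses TMM factors, and with total UMIs as the scale instead the median of all genes moved from -0.21 to -1.31, and 4 members were called higher and 23 lower, where 16.4% and 70.1% of all genes were. Hist1h4i, Hist1h2br and Hist1h2ac, called higher with TMM factors (1.17, 1.04 and 1.30), were then at 0.06, -0.06 and 0.19, and Hist1h1e turned from 0.45 to -0.65 and was called in both. On the total scale Hist1h1e was at 0.473, 0.293, 0.412 and 0.430 in neutrophils and at 0.601, 0.613, 0.645 and 0.634 in monocytes and macrophages.

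T cells outside the cycle (4246 cells, other T cells among them) were set against the same monocytes and macrophages. Here 8 of 39 members tested were called higher and 11 lower in T cells, where 37.3% and 37.9% of all genes were, 75.1% in either direction. Hist3h2a had the largest of the 11, at 0.0617, 0.0728, 0.121 and 0.0602 in T cells against 0.289, 0.350, 0.359 and 0.346, a difference of -2.40 ± 0.15, and Hist1h2bc was at 0.117, 0.0728, 0.173 and 0.0918, a difference of -1.78 ± 0.16. Hist1h3d (-1.72) and Hist2h2be (-1.35) were also lower. Differences from -0.71 to -0.31 were called for Hist1h1b, Hist2h2aa1, Hist2h2ac, Hist1h2ae, Hist1h1d, Hist1h4i and Hist1h2ap. Among these 7, Hist1h1b and Hist2h2aa1 were still called with total UMIs as the scale and the other 5 were not. Higher in T cells were Hist2h2bb (0.83), Hist2h3b (0.77), Hist1h4c (0.62), Hist1h3a (0.58), Hist3h2ba (0.58), Hist1h4h (0.49), Hist2h4 (0.48) and Hist4h4 (0.47), which on the total scale were also called higher. That scale moved the median of all genes from 0.02 to 0.34 and gave 14 members higher and 6 lower, where 49.8% and 28.4% of all genes were, with Hist1h1e turning from -0.08, not called, to 0.24, called.

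In NK cells against T cells outside the cycle 3 of 31 members were called, all higher in NK cells. That share is near the background, since 12.6% of all genes were called higher and 12.6% lower. Of the members 25 had a difference above 0 (80.6%), against 49.8% of all genes. Hist1h1e was at 1.08, 1.22, 1.006 and 1.07 in NK cells and at 0.757, 0.768, 0.769 and 0.628 in T cells, a difference of 0.68 ± 0.10 (adjusted p = 3.54e-05, edgeR). The ranges did not overlap. Hist1h4d differed by 0.57 ± 0.13 and Hist1h4c by 0.54 ± 0.19, the latter not called with total UMIs as the scale. DESeq2 called 1 member, among 1483 genes in all.

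**Figure D5:**
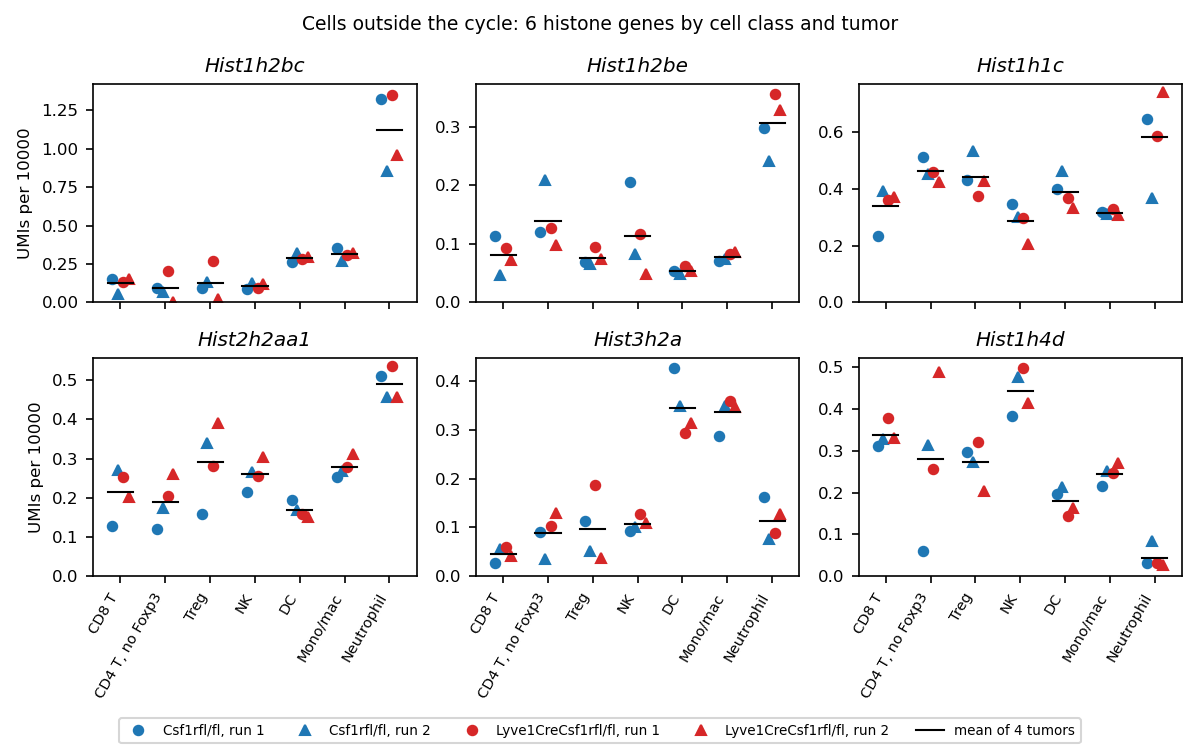
Level in UMIs per 10000 of 6 histone cluster genes in cells outside the cycle, by cell type, 1 point per tumor and a line at the mean of 4 tumors. Hist1h2bc lies between 0.855 and 1.35 in neutrophils and between 0.270 and 0.355 in monocytes and macrophages.

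Genotypes were compared within each type over all its cells, as 2 tumors against 2. The run was left out of this fit, so differences between runs count as spread in it. Deviations of the tumors of a run correlated at 0.24 to 0.69 over genes, and a fit with the run as a block is given below. No member was called in any of the 7 types, and the edgeR adjusted p of every member was at least 0.9998. Of all genes 0% were called in 6 types and 0.0113%, a single gene, in NK cells, so a count of 0 members is what the background of this fit gives. DESeq2 called 0 members too. At an unadjusted p under 0.05, edgeR had 0 of 57 members in CD8 T cells, 0 of 33 in CD4 T cells without Foxp3, 0 of 54 in regulatory T cells, 0 of 52 in NK cells, 2 of 22 in neutrophils, 1 of 49 in monocytes and macrophages and 5 of 44 in dendritic cells. Of all genes tested, 0.861% reached that p in neutrophils, 2.31% in monocytes and macrophages and 1.60% in dendritic cells. The 2 members in neutrophils were Hist1h1b and Hist1h3c. Of the 139 UMIs of Hist1h1b in neutrophils, 89 lay in the 14 cycling ones, where Hist1h3c had 25. With 2 tumors a side, the smallest two-sided p of an exact permutation test is 0.333.

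Summed levels of the genotypes overlapped in 6 of the 7 types, all but dendritic cells. Within each run, the tumor of Lyve1CreCsf1rfl/fl was the lower in CD8 T cells, CD4 T cells without Foxp3, monocytes and macrophages and dendritic cells, the higher in regulatory T cells, and not the same way in both runs in NK cells and neutrophils. Over all cells they were 38.6, 34.3, 38.2 and 31.7 in CD8 T cells, 43.7, 31.3, 44.2 and 34.3 in regulatory T cells and 7.29, 5.88, 6.08 and 5.73 in monocytes and macrophages. In dendritic cells they were 10.5 and 8.91 in Csf1rfl/fl and 6.84 and 7.14 in Lyve1CreCsf1rfl/fl, with 2.21% and 4.75% of cells cycling in the former and 2.20% and 2.61% in the latter, and 9 of 44 members tested (20.5%) had a difference above 0, against 48.1% of all genes tested. That share was 33.3% in CD4 T cells without Foxp3, 31.8% in neutrophils, 40.4% in CD8 T cells, 48.1% in NK cells, 49.0% in monocytes and macrophages and 79.6% in regulatory T cells, where all genes lay between 47.4% and 52.7%. No test was made of these signs, since the members share cells and are not replicates. In dendritic cells Hist1h3c was at 0.218 and 0.211 in Csf1rfl/fl and at 0.0971 and 0.112 in Lyve1CreCsf1rfl/fl, Hist1h1b at 0.830 and 0.966 against 0.377 and 0.642, and Hist1h2ap at 2.17 and 0.905 against 1.04 and 0.614. The groups did not overlap for Hist1h3c and Hist1h1b and did for Hist1h2ap, and none passed the test. Among cycling T cells, taken alone after the summed levels had been seen, Hist1h2ap was at 21.6 and 7.75 in Csf1rfl/fl and 17.7 and 7.85 in Lyve1CreCsf1rfl/fl, a difference of -0.20 ± 0.55, and 0 of 58 members were called. With the run taken as a block in edgeR, 1 member was called in monocytes and macrophages and none in the other types. Hist1h2ap, at 1.06, 0.356, 0.497 and 0.276, had a difference of -0.75 between Lyve1CreCsf1rfl/fl and Csf1rfl/fl (adjusted p = 0.0428, edgeR), among 61 genes called. These levels include the 107 cycling cells, in which the gene stood far above the other cells and of which Scrublet marked 39.3%. Their part in the call was not tested.

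The runs were also compared. Each run holds its own tumors, so a difference between runs cannot be told apart from one between these pairs of tumors. With the genotype as a block, 11 of 58 members were higher in run 1 than in run 2 in cycling T cells and 0 lower, where 2.92% of all genes were called higher and 0.397% lower, 3.32% in either direction. Hist1h2ap was at 21.6 and 17.7 in run 1 against 7.75 and 7.85 in run 2, a difference of 1.50 ± 0.09 (adjusted p = 0.000448, edgeR), and Hist1h2ae at 16.7 and 15.9 against 9.29 and 9.06, a difference of 0.9987 ± 0.07. The other 9 were Hist1h2an (0.90), Hist1h2bn (0.83), Hist1h3b (0.75), Hist1h3i (0.74), Hist2h2bb (0.68), Hist1h1e (0.65), Hist1h3e (0.64), Hist1h2be (0.64) and Hist1h2bj (0.63). None was an H4 gene, and Hist1h2bc and Hist2h2aa1 had differences of -0.18 and -0.28. Outside the cycle 3 of 34 members were called higher in run 1, against 6.82% of all genes: Hist1h2ap by 1.47 ± 0.23, Hist1h2ae by 0.98 ± 0.23 and Hist1h2bc by 1.02 ± 0.27. This comparison was added after the levels of the runs were seen. With total UMIs as the scale it gave 2 members in cycling T cells and 1 outside the cycle, counts that have no share of all genes to set them against. DESeq2 gave 4 and 0 members, among 153 and 261 genes in all. Of the replication-independent histones H2afz, H3f3b, H3f3a and H2afv were higher in run 1 as well in cycling T cells, by 0.74, 0.74, 0.71 and 0.63. In T cells outside the cycle H2afz, H3f3a, H3f3b and H2afj were called higher, by 0.74, 0.68, 0.62 and 0.52. The annotated Hist1h2ap transcript has a run of 12 A bases and that of Hist1h2ae one of 8, against a median of 4 over the members. Scrublet marked 21.3% of the kept cells of run 1 and 12.8% of those of run 2. The part of either in the difference between runs was not tested.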

How the data were processed

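Single-cell RNA counts of CD45+ leukocytes from 4 EO771 tumors, 2 of each genotype, were used. The authors aligned reads to mm10 with Cell Ranger 6.0.1, and the deposited RNA and hashtag counts are UMIs per barcode, not normalized. A second deposited gene table holds corrected values of the authors (unit score, made in Seurat) and served only to learn which cells they kept. They had kept singlets and taken out clusters specific to the Lyve1CreCsf1rfl/fl tumor of run 2. The paper describes those cells as lymphocytes rich in ribosomal gene transcripts. The tumor of each cell was set by its higher hashtag count, its genotype by the authors' cell metadata. Total counts were 27686362 to 56395707 UMIs per tumor, the larger with the 11 cells of equal hashtag counts.

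Cells were gated by marker panels, at least 2 to 8 UMIs per 10000 and 3 UMIs (neutrophils also 50 per 10000 of S100 genes). Cycling (80 per 10000) and outside (under 40) were set after values were seen. The members and gene lists were chosen with earlier results of these data known. UMIs were summed per tumor and cell set and tested with edgeR 4.0.16 (glmQLFit and glmQLFTest, filterByExpr, TMM factors) on R 4.3.3, with adjusted p under 0.05 as the threshold and adjustment over all genes tested. DESeq2 1.42.0, total UMIs as scale, no filter, stricter gates, thinning to 1500 UMIs, removal of Scrublet doublets (scanpy 1.11.5, expected rate 0.2) and leaving out each tumor were alternatives. By rule, every member with at least 50 UMIs is named with a value, and the 12 with the most UMIs and members called between genotypes are given per tumor. For Hist1h3c, called in neutrophils with no filter on low counts, levels per tumor are given in other cell types only. Other members given per tumor, such as Hist3h2a and Hist1h2be, were chosen after their values were seen. Slbp, Nasp, Casp8ap2, Chaf1b, Ccne2 and Cenpa were taken out of the cycle genes, since they stand in the lists described. The replicate number is the capture run, shared by a tumor of each genotype, and deviations of the tumors of a run correlated at 0.24 to 0.69 over genes. In simulated counts all 200 genes changed by 2 on the log2 scale were recovered (100%) in each of 4 comparisons, with 9 to 15 false calls. The genotype comparisons among these were in CD8 T cells and in monocytes and macrophages. Members differed there by only -0.43 to 0.61 and by -0.86 to 0.78. Changes of that size were not simulated, so the recovery does not show that they would be found.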

Additional observations from a re-analysis of the deposited data

Results flagged for a closer look

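The summed histone level over all CD4 T cells without Foxp3 was 29.6 and 28.6 in Csf1rfl/fl and 28.7 and 20.4 UMIs per 10000 in Lyve1CreCsf1rfl/fl, and the Lyve1CreCsf1rfl/fl tumor of run 2 lay far from the others. Its gap to the nearest tumor was 0.890 of the whole range, above Dixon's critical value for 4 samples. Chance gives such a gap in about 1 of 20 sets, and 22 sets were looked at. The authors had taken out lymphocyte clusters specific to this same tumor, and the part of that in the gap was not tested.

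The difference between cycling and other cells was not the same in CD8 T cells as in monocytes and macrophages for 2 members, by an interaction term in edgeR. For Hist3h2a the contrast was larger in CD8 T cells by 2.67 on the log2 scale, with 0.52 in CD8 T cells and -2.18 in monocytes and macrophages, where it had 9 UMIs in all in cycling cells. For Hist1h2ap it was larger by 1.17. These are 2 of 57 members, where 3.62% of all genes were called. A difference above 0 was found in 49 of the members (86.0%), against 47.8% of all genes, and 22.8% of the members had an unadjusted p under 0.05 in edgeR's fit, against 16.7% of all genes. With the doublets removed 16 members were called, and more of all genes were called as well, so this count alone says nothing about the members. Without the Csf1rfl/fl tumor of run 1 the call of Hist3h2a was lost (adjusted p = 0.111, edgeR's fit across all genes).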

How the results depend on the processing

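Between genotypes, 1 member was called in neutrophils with no filter on low counts (Hist1h3c, -3.27) and 1 in monocytes and macrophages with the replicate block (Hist1h2ap, -0.75). Hist1h3c had 12 and 12 UMIs in the cycling neutrophils of Csf1rfl/fl and 1 and 0 in those of Lyve1CreCsf1rfl/fl. These were 14 cells in all, of which Scrublet marked 57.1%, and were too few for a comparison. The replicate block changed no other genotype call, and without it the counts in the other comparisons stayed within 1.5 times, except that the interaction gave 1 member in place of 2 (Hist1h2ap at 0.96 was not called). With other settings the interaction gave 7 members (no filter), 4 (stricter gate), 8 (stricter cycling threshold) and 16 (without doublets), and 4 without Csf1rfl/fl replicate 1 or without Lyve1CreCsf1rfl/fl replicate 1. The runs differed in 17 members in cycling T cells and 5 outside the cycle with no filter. Without Csf1rfl/fl replicate 2, 2 members were called in monocytes and macrophages and 3 in dendritic cells, so that leaving out each tumor gave 0 to 2 and 0 to 3 there. Such a fit leaves 1 tumor in an arm, which is assumed to vary like the other genotype's 2. For cycling cells, leaving out a tumor gave 54 to 55 members called in CD8 T cells, 37 to 48 in monocytes and macrophages and 39 to 44 in dendritic cells. The stricter cycling threshold gave 20 members between S-leaning and other cycling T cells. DESeq2 gave 11 between T cells and monocytes and macrophages and 1 between NK and T cells, among 7484 and 1483 genes in all. A count of members with no count or share of all genes, here or above, cannot be set against a background. Total UMIs as scale gave 27 members between neutrophils and monocytes and macrophages (4 higher, 23 lower) and turned Hist1h2ap there to -0.79 and Hist1h1e to -0.65, and Hist1h1e between T cells and monocytes and macrophages to 0.24. Thinning to 1500 UMIs moved the summed level over all cells to 27.3 in CD8 T cells, 17.6 in CD4 T cells without Foxp3, 27.9 in regulatory T cells, 21.9 in NK cells and 5.68 in dendritic cells, and outside the cycle to 6.01 in NK cells and 3.89 in dendritic cells. Without doublets monocytes and macrophages were at 5.26 over all cells. The cause of these changes was not tested. S-leaning cells could not be compared with other cycling cells in monocytes and macrophages, which had 6 S-leaning cells. Members with few UMIs outside the cycle are limited by counting: Hist1h2af had 1 UMI in CD8 T cells there.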
